A study of Drosophila melanogaster with 12 samples.

Results

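The gypsy-named and related families of Drosophila melanogaster are retrotransposons with long terminal repeats (LTRs), many of which carry an env gene like that of a retrovirus. They were taken from the deposited tables of transposable element reads by name: every entry that starts with GYPSY, GTWIN, IDEFIX, ZAM, TIRANT, QUASIMODO, ROVER, TABOR, DM297, DM176 or ACCORD. That gave 52 of the 186 entries of the tables. The tables list the internal part of an element and its LTR as separate entries, and these were added up per family, which left 28 families of 131 in all, 24 of them with both entries and 4 with 1. Which of the 28 carry an intact env gene was not analysed here, so the name of the group goes by its members' names and not by their sequence.

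Polyadenylated RNA had been sequenced from salivary glands and from wing imaginal discs of larvae at stage L3, the last larval stage, kept at 25°C, with 25 glands or 25 disc pairs in each library. Mutant-labelled glands and mutant-labelled discs (3 libraries each) carry the genotype label egg_1473; Su(var)3-9_06 and are named as knock-outs of SetDB1, the product of egg, and of Su(var)3-9. Control glands and control discs (3 libraries each) came from the OregonR strain. No treatment is given for any group. The mutant-labelled larvae and the controls are 1 strain each, so an effect of the mutations and a difference in the number of element copies between the strains cannot be told apart. For glands the selection of polyadenylated RNA was done in an extra round, so that tissue and library preparation cannot be told apart either. The labels speak of 3 technical replicates, and nothing says that the libraries of a group came from separate cultures of flies, so the spread behind each p-value may be technical alone.

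An element with an env gene can in principle move from cell to cell as a virus does, and gypsy itself is known to infect the germline from the somatic follicle cells of the ovary. In those follicle cells the piRNA pathway holds such elements down: the flamenco locus, a long array of old copies of gypsy, ZAM, Idefix and their relatives, gives rise to antisense piRNAs, and Piwi loaded with them directs the methylation of lysine 9 of histone H3 (H3K9) at the elements. SetDB1 is the methyltransferase known for that step in the ovary, and Su(var)3-9 is the main H3K9 methyltransferase of pericentromeric heterochromatin. The larval tissues studied here are somatic and outside the gonad.

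Gene counts came to 43909478 to 57591665 per library in mutant-labelled glands, 17418224 to 52209922 in control glands, 23337165 to 28136399 in mutant-labelled discs and 19781382 to 27303075 in control discs. Su(var)3-9 RNA went against the label in glands, at 70.9, 60.5 and 112 counts per 1000000 gene counts (CPM, scaled by TMM) in mutant-labelled glands against 2.96, 2.36 and 2.12 in control glands. In discs it fell, to 4.81, 3.92 and 3.21 CPM in mutant-labelled discs against 24.6, 24.7 and 25.7 in control discs. The RNA of egg did not pass the test in glands (adjusted p = 0.85) or in discs (adjusted p = 0.70), and the labels do not say which part of the gene the allele changes. Sums over markers, here and below, are in CPM by summed gene counts without TMM factors. Summed gland markers stood at 326999 to 345901 CPM in mutant-labelled glands and 315000.0 to 316336 in control glands, and summed wing disc markers at 1335 to 1631 CPM in mutant-labelled discs and 1822 to 1886 in control discs, so the labelled tissue was present in each. Of the 8 disc markers, 1 was higher and 4 were lower in mutant-labelled discs, and of the 11 gland markers 1 was lower in mutant-labelled glands. Summed markers of the fat body, a tissue that lies against the glands, came to 25869.9 to 30298 CPM in mutant-labelled glands and 14089 to 19466 in control glands, with 3 of 7 higher. The summed germline markers came to 46.0 to 52.2 CPM in mutant-labelled discs and 9.67 to 14.9 in control discs, with 3 of the 6 tested higher and 1 lower. Summed markers of the trachea came to 40.04 to 49.4 CPM in mutant-labelled glands and 116 to 161 in control glands, with 3 of 5 lower. Those of hemocytes, the blood cells, came to 10.2 to 15.5 CPM in mutant-labelled discs and 28.7 to 42.9 in control discs, with 3 of 6 lower. The part of these other cell types in the element results was not tested.

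Reads on the 28 families were far more frequent in mutant-labelled than in control libraries, and most of all in discs. In reads per 1000000 gene counts (RPM below), mutant-labelled discs had 6948, 6811 and 7363 reads on the 28 families together, against 323, 283 and 270.2 in control discs, a ratio of means of 24.1. Mutant-labelled glands had 619, 688 and 738 RPM, against 306, 246 and 317 RPM in control glands, a ratio of 2.36. The groups overlapped in neither tissue, and the sums carry no test, since the families were chosen with earlier results known. Element reads as a whole rose too: all 131 families gave 30531 to 34295 RPM in mutant-labelled discs against 6246 to 7165 in control discs, and 5648 to 7131 RPM in mutant-labelled glands against 3526 to 4045 in control glands. Of all element reads, the 28 families took 20.3, 22.3 and 22.2% in mutant-labelled discs and 4.51, 4.30 and 4.33% in control discs, a ratio of means of 4.93. They took 10.97, 9.74 and 10.3% in mutant-labelled glands and 8.20, 6.96 and 7.82% in control glands, a ratio of 1.35. The families' share of element reads was thus also higher in every mutant-labelled library than in every control of the same tissue. In bulk tissue, fewer cells with an active element and less element RNA per cell cannot be told apart.

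A few families held most of these reads, and they were not the same ones in every group. GYPSY12 took 65.0, 61.8 and 58.2% of the 28 families' reads in mutant-labelled discs, against 9.77, 7.15 and 10.1% in control discs. IDEFIX took 0.538, 0.757 and 0.833% in mutant-labelled glands, against 66.2, 30.5 and 61.2% in control glands, where it was the most read of the families in every library. In mutant-labelled glands GYPSY12 held 32.3, 23.5 and 20.8% and ACCORD 19.2, 25.6 and 22.7%. Control gland replicate 2 stood apart from the other 2 control gland libraries in this makeup, with a larger share on GYPSY12 and a smaller one on IDEFIX. These shares are of reads and not per length of the element, because the files do not give the lengths of the consensus sequences, and levels are therefore not ranked between families.

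**Figure D1:**
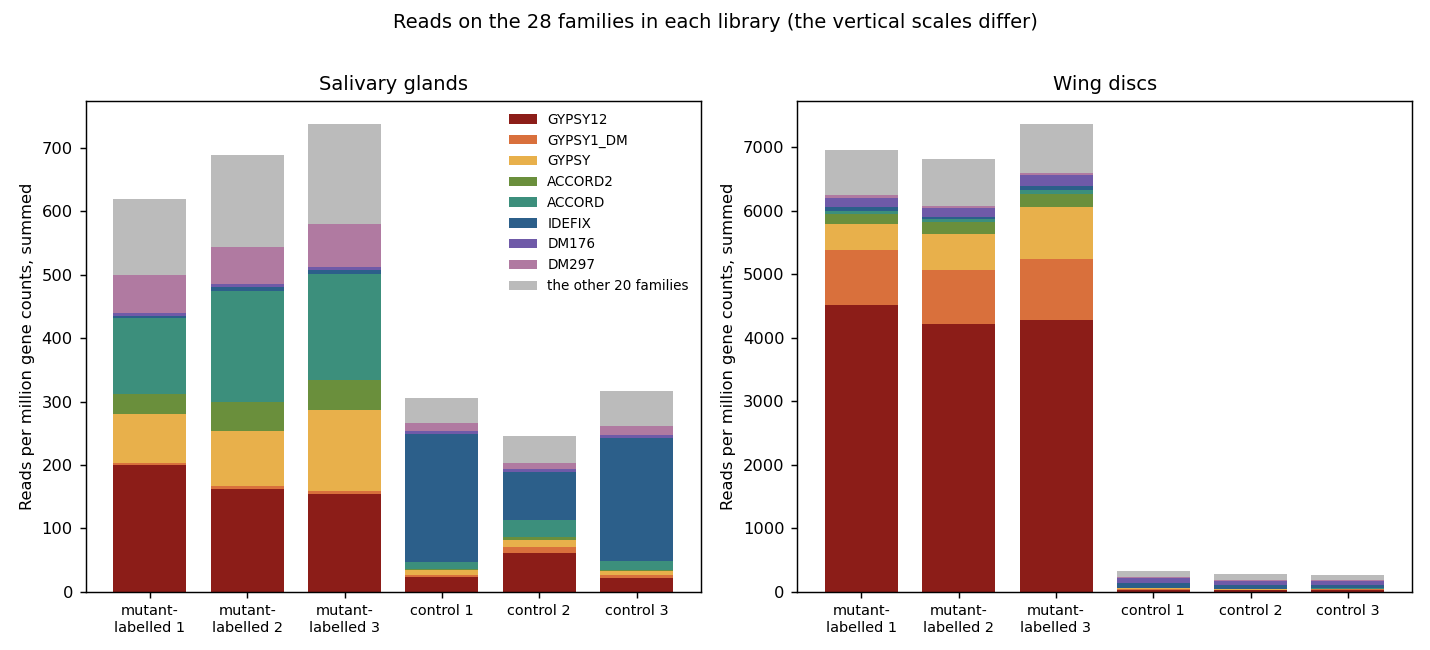
Stacked bars give the RPM on the 28 families in each of the 12 libraries, mutant-labelled left of control, with the 8 families with most reads in colour and the other 20 in grey; the vertical scales of the glands (left) and discs (right) differ. GYPSY12 fills most of each mutant-labelled disc bar, and IDEFIX is the largest block of each control gland bar.

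In wing discs, all 28 families could be tested, and 24 were higher in mutant-labelled than in control discs and 4 did not pass the threshold (edgeR quasi-likelihood test, Benjamini-Hochberg adjusted over all families of the tables, threshold 0.05; changes are given on the log2 scale ± SE). The count of lower families was 0, as it was at an unadjusted p under 0.05 and with DESeq2 and limma-voom. Such a count has to be read against a background in which most families rose: of all families tested, 82.6% were higher in mutant-labelled discs (100 of 121) and 5.79% were lower (7 of 121). The share of the 28 that was called is near that background. The median log2 change of the 28 was 3.00, beside 2.17 over all families tested. All 3 mutant-labelled libraries lay above all 3 controls in 24 of the 28, as they did in 80.8% of the 130 families with a readable value in every disc library. They lay below in none of the 28 and in 7.69% of those 130.

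The steepest disc changes were those of GYPSY12, GYPSY, GYPSY6A, GYPSY6 and GYPSY1_DM. GYPSY12, a numbered family of the gypsy group, gave 4519, 4212 and 4284 RPM in mutant-labelled discs, against 31.6, 20.3 and 27.2 RPM in control discs, a log2 change of 7.36 ± 0.25 (adjusted p = 3.3e-09). GYPSY, the family after which the group is named and whose env gene is functional, gave 417, 577 and 817 RPM in mutant-labelled discs, against 5.61, 4.09 and 4.61 RPM in control discs, a log2 change of 6.98 ± 0.31 (adjusted p = 1.2e-08). Both sets of mutant-labelled libraries were higher than any control library by more than the whole range of either group. GYPSY1_DM stood at 859, 845 and 952 RPM in mutant-labelled discs, against 16.5, 14.0 and 13.6 RPM in control discs, a log2 change of 5.91 ± 0.18 (adjusted p = 3.0e-09). GYPSY6 stood at 139, 191 and 161 RPM in mutant-labelled discs, against 3.71, 2.43 and 1.98 RPM in control discs, a log2 change of 5.92 ± 0.27 (adjusted p = 1.2e-08). GYPSY6A, which has an LTR entry alone, stood at 43.5, 66.6 and 67.0 RPM in mutant-labelled discs, against 0.633, 0.556 and 0.476 RPM in control discs, a log2 change of 6.73 ± 0.26 (adjusted p = 6.8e-09). In all of these the groups did not overlap, and each change kept its direction and its call when libraries were scaled to all element reads in place of gene counts, at 5.07 for GYPSY12, 4.70 for GYPSY and 3.62 for GYPSY1_DM on the log2 scale.

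Among the other numbered families, GYPSY8 gave 71.5, 60.9 and 64.2 RPM in mutant-labelled discs, against 3.71, 3.49 and 3.19 RPM in control discs, a log2 change of 4.24 ± 0.15 (adjusted p = 4.3e-09). GYPSY2_DM gave 75.8, 57.9 and 68.4 RPM in mutant-labelled discs, against 4.39, 4.60 and 5.05 RPM in control discs, a log2 change of 3.84 ± 0.16 (adjusted p = 9.9e-09). GYPSY4 gave 142, 129 and 137 RPM in mutant-labelled discs, against 23.1, 21.8 and 19.4 RPM in control discs, a log2 change of 2.67 ± 0.14 (adjusted p = 3.1e-08). The members of this set lay between the steepest families and the flat ones. GYPSY2, which the tables list apart from GYPSY2_DM, gave 19.1, 23.3 and 23.3 RPM in mutant-labelled discs, against 2.22, 2.33 and 2.01 RPM in control discs, a log2 change of 3.33 ± 0.17 (adjusted p = 2.2e-08). GYPSY3 gave 11.5, 16.8 and 14.4 RPM in mutant-labelled discs, against 1.58, 1.16 and 1.47 RPM in control discs, a log2 change of 3.33 ± 0.22 (adjusted p = 1.7e-07). GYPSY10 gave 8.61, 9.06 and 12.8 RPM in mutant-labelled discs, against 2.03, 1.36 and 1.61 RPM in control discs, a log2 change of 2.60 ± 0.24 (adjusted p = 2.6e-06). The groups overlapped in none of these 6 families.

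The remaining numbered families had few reads. GYPSY12A, again an LTR entry alone, gave 6.81, 5.55 and 6.47 RPM in mutant-labelled discs, against 1.95, 1.06 and 0.769 RPM in control discs, a log2 change of 2.33 ± 0.31 (adjusted p = 4.6e-05). GYPSY9 gave 1.54, 1.46 and 1.18 RPM in mutant-labelled discs, against 0.136, 0.202 and 0 RPM in control discs, a log2 change of 3.70 ± 0.58 (adjusted p = 1.4e-04) that rests on very few control reads. Scaled to all element reads, the calls of GYPSY10 (adjusted p = 0.23), GYPSY12A (adjusted p = 0.87) and GYPSY9 (adjusted p = 0.074) were lost. GYPSY7 gave 2.23, 2.56 and 1.81 RPM in mutant-labelled discs, against 0.859, 0.960 and 0.659 RPM in control discs, a log2 change of 1.43 ± 0.28 (adjusted p = 7.6e-04) that turned to -0.85 relative to all element reads and passed as lower there (adjusted p = 0.021). GYPSY5, at 1.4998, 1.49 and 2.77 RPM in mutant-labelled discs and 0.181, 0.101 and 2.23 RPM in control discs, did not pass the test (adjusted p = 0.21), and nor did GYPSY11, at 2.06, 2.35 and 2.81 RPM in mutant-labelled discs and 3.53, 2.22 and 1.47 RPM in control discs (adjusted p = 0.97). GYPSY5 did pass with limma-voom (adjusted p = 0.034) and with a block of replicate numbers (adjusted p = 0.0038). Without control disc replicate 3 it passed too (log2 change 3.69, adjusted p = 7.5e-05). GYPSY11 was lower relative to all element reads, by a log2 change of -2.26 (adjusted p = 1.9e-04). One control disc library of GYPSY5 lay within the mutant-labelled range and the other 2 far below it.

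Of the families with names of their own, ACCORD2, QUASIMODO2_DM, GTWIN and ACCORD showed the steepest disc changes. ACCORD2 gave 158, 182 and 210.1 RPM in mutant-labelled discs, against 3.89, 4.25 and 3.85 RPM in control discs, a log2 change of 5.52 ± 0.18 (adjusted p = 3.3e-09). QUASIMODO2_DM gave 70.4, 41.5 and 58.5 RPM in mutant-labelled discs, against 1.94, 1.52 and 0.769 RPM in control discs, a log2 change of 5.35 ± 0.33 (adjusted p = 1.0e-07). GTWIN, a close relative of gypsy, gave 13.2, 22.1 and 21.2 RPM in mutant-labelled discs, against 0.814, 0.607 and 0.476 RPM in control discs, a log2 change of 4.90 ± 0.30 (adjusted p = 8.6e-08). These families had few reads in control discs and no overlap between groups. ACCORD, known for the LTR inserted before the insecticide resistance gene Cyp6g1 in many strains, gave 39.6, 43.3 and 64.4 RPM in mutant-labelled discs, against 2.71, 1.97 and 2.42 RPM in control discs, a log2 change of 4.37 ± 0.24 (adjusted p = 4.3e-08). ROVER_DM, an element with an env gene and here a single entry, gave 33.8, 42.0 and 52.2 RPM in mutant-labelled discs, against 9.18, 8.14 and 8.09 RPM in control discs, a log2 change of 2.33 ± 0.18 (adjusted p = 6.6e-07) that came to 0.04 relative to all element reads (adjusted p = 0.83).

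A further 5 named families rose per gene count by no more than element reads as a whole. ZAM, a target of flamenco in the ovary, gave 4.46, 4.76 and 6.80 RPM in mutant-labelled discs, against 1.18, 1.11 and 1.10 RPM in control discs, a log2 change of 2.24 ± 0.25 (adjusted p = 1.2e-05) that turned to -0.05 relative to all element reads. TIRANT, which also carries an env gene, gave 11.4, 10.98 and 12.8 RPM in mutant-labelled discs, against 2.53, 2.58 and 2.67 RPM in control discs, a log2 change of 2.17 ± 0.16 (adjusted p = 5.2e-07) that turned to -0.12. QUASIMODO gave 16.1, 13.9 and 16.7 RPM in mutant-labelled discs, against 7.505, 5.97 and 4.94 RPM in control discs, a log2 change of 1.34 ± 0.18 (adjusted p = 5.2e-05) that turned to -0.94. All 3 were higher in every mutant-labelled than in every control library per gene count. DM297 gave 40.2, 35.7 and 40.4 RPM in mutant-labelled discs, against 17.9, 15.6 and 11.4 RPM in control discs, a log2 change of 1.38 ± 0.18 (adjusted p = 3.9e-05) that turned to -0.91. DM176, its close relative, gave 149, 140.3 and 173 RPM in mutant-labelled discs, against 79.4, 67.1 and 61.9 RPM in control discs, a log2 change of 1.15 ± 0.15 (adjusted p = 4.7e-05) that turned to -1.14. Relative to all element reads, QUASIMODO (adjusted p = 2.3e-04), DM297 (adjusted p = 3.7e-04) and DM176 (adjusted p = 3.3e-05) passed as lower. ZAM (adjusted p = 0.84) and TIRANT (adjusted p = 0.42) did not pass on that scale. IDEFIX, at 62.8, 43.5 and 53.0 RPM in mutant-labelled discs and 70.8, 61.0 and 52.4 RPM in control discs, and TABOR, at 28.9, 28.7 and 37.1 RPM in mutant-labelled discs and 23.3, 33.0 and 34.4 RPM in control discs, did not pass the test per gene count. Their adjusted p were 0.27 and 0.77, and relative to all element reads they were lower, by log2 changes of -2.50 for IDEFIX and -2.25 for TABOR.

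**Figure D2:**
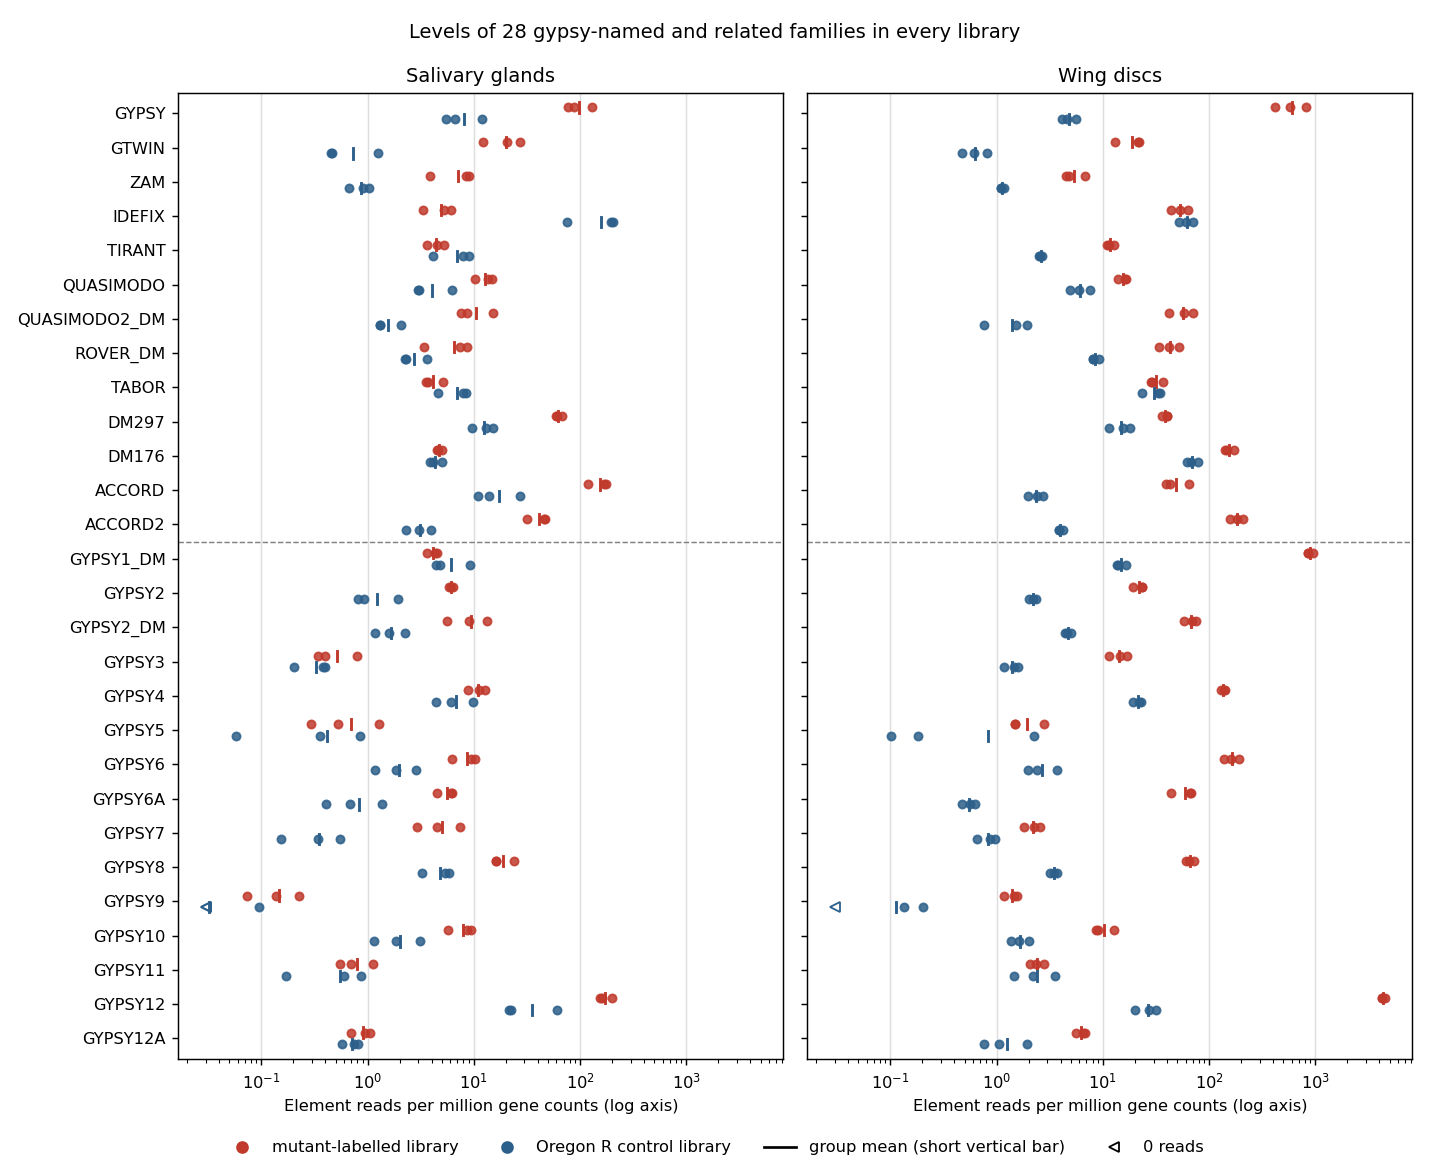
Each row is a family, families with names of their own above the broken line and numbered GYPSY families under it; points give the RPM of each library on a log axis (mutant-labelled in red, Oregon R control in blue), and short vertical bars give the mean of 3 libraries. In discs (right) the red points lie right of the blue ones in 24 rows, whereas in glands (left) IDEFIX is shifted the other way; open triangles mark 0 reads.

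In salivary glands, 27 of the 28 families could be tested (GYPSY9 had too few reads), and 17 were higher in mutant-labelled glands, 1 was lower and 9 did not pass. Over all families tested, 56.8% were higher (67 of 118) and 15.3% were lower (18 of 118), so that the share called was again near the background. The median log2 change of the 28 families' tested members was 1.95, beside 1.07 over all families tested. The mutant-labelled libraries lay wholly above the controls in 16 of the 28, as in 51.9% of the 129 families with a readable value in every gland library. They lay wholly below in 1, as in 13.2% of those 129. Each of the 17 families that rose in glands also rose in discs, where 82.6% of all families tested rose (100 of 121). This overlap was not counted over all families.

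GTWIN, ACCORD2, GYPSY7, GYPSY and ACCORD showed the steepest rises in glands. GTWIN gave 27.1, 12.2 and 20.5 RPM in mutant-labelled glands, against 0.455, 1.26 and 0.460 RPM in control glands, a log2 change of 4.86 ± 0.46 (adjusted p = 3.3e-22). ACCORD2 gave 31.5, 45.4 and 47.3 RPM in mutant-labelled glands, against 2.33, 3.96 and 3.03 RPM in control glands, a log2 change of 3.74 ± 0.42 (adjusted p = 2.9e-16). GYPSY7 gave 2.95, 4.53 and 7.47 RPM in mutant-labelled glands, against 0.152, 0.344 and 0.555 RPM in control glands, a log2 change of 3.68 ± 0.46 (adjusted p = 6.4e-14). The mutant-labelled libraries of these families differed among themselves, and even the lowest lay above every control. GYPSY gave 76.8, 87.1 and 129 RPM in mutant-labelled glands, against 6.62, 12.1 and 5.50 RPM in control glands, a log2 change of 3.60 ± 0.42 (adjusted p = 1.2e-15). ACCORD gave 119, 176 and 167 RPM in mutant-labelled glands, against 10.97, 27.0 and 14.0 RPM in control glands, a log2 change of 3.16 ± 0.40 (adjusted p = 2.5e-13). ZAM gave 3.91, 8.92 and 8.45 RPM in mutant-labelled glands, against 0.910, 1.03 and 0.670 RPM in control glands, a log2 change of 3.06 ± 0.42 (adjusted p = 1.1e-11). The groups did not overlap in any of them.

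Further rises in glands were those of GYPSY12, DM297, QUASIMODO2_DM and QUASIMODO. GYPSY12 gave 200.1, 162 and 154 RPM in mutant-labelled glands, against 22.6, 61.0 and 21.7 RPM in control glands, a log2 change of 2.30 ± 0.38 (adjusted p = 1.9e-08). DM297 gave 61.0, 59.3 and 67.1 RPM in mutant-labelled glands, against 13.0, 9.59 and 15.1 RPM in control glands, a log2 change of 2.31 ± 0.39 (adjusted p = 3.3e-08). QUASIMODO2_DM gave 7.52, 8.57 and 15.1 RPM in mutant-labelled glands, against 1.31, 2.07 and 1.30 RPM in control glands, a log2 change of 2.75 ± 0.40 (adjusted p = 1.5e-10). DM297 was even within each group, whereas control replicate 2 of GYPSY12 stood above the other controls and below each mutant-labelled library. QUASIMODO gave 10.2, 13.7 and 14.7 RPM in mutant-labelled glands, against 3.03, 2.99 and 6.21 RPM in control glands, a log2 change of 1.64 ± 0.38 (adjusted p = 4.3e-05). ROVER_DM gave 3.37, 8.59 and 7.45 RPM in mutant-labelled glands, against 2.28, 2.30 and 3.60 RPM in control glands, a log2 change of 1.23 ± 0.38 (adjusted p = 0.0023). This last family is the only one of the 17 whose groups overlapped, and its call was lost without mutant-labelled gland replicate 2 (log2 change 0.97, adjusted p = 0.058) and relative to all element reads (log2 change 0.39, adjusted p = 0.30).

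The other numbered families that rose in glands were GYPSY8, GYPSY6, GYPSY6A, GYPSY2_DM, GYPSY2 and GYPSY10. GYPSY8 gave 16.1, 23.8 and 16.1 RPM in mutant-labelled glands, against 3.24, 5.40 and 5.82 RPM in control glands, a log2 change of 1.95 ± 0.39 (adjusted p = 1.9e-06). GYPSY6 gave 6.18, 9.41 and 10.2 RPM in mutant-labelled glands, against 1.16, 2.87 and 1.86 RPM in control glands, a log2 change of 2.14 ± 0.39 (adjusted p = 2.3e-07). GYPSY6A gave 4.55, 6.12 and 6.29 RPM in mutant-labelled glands, against 0.405, 1.38 and 0.690 RPM in control glands, a log2 change of 2.81 ± 0.42 (adjusted p = 3.8e-10). Their control levels were a few RPM or less. GYPSY2_DM gave 5.59, 9.01 and 13.4 RPM in mutant-labelled glands, against 1.16, 1.61 and 2.24 RPM in control glands, a log2 change of 2.45 ± 0.39 (adjusted p = 5.0e-09). GYPSY2 gave 6.42, 6.12 and 5.90 RPM in mutant-labelled glands, against 0.809, 0.919 and 1.92 RPM in control glands, a log2 change of 2.27 ± 0.40 (adjusted p = 8.1e-08). GYPSY10 gave 5.75, 8.61 and 9.43 RPM in mutant-labelled glands, against 1.87, 1.15 and 3.08 RPM in control glands, a log2 change of 1.92 ± 0.39 (adjusted p = 2.5e-06). In each of these 6 the highest control library stayed under the lowest mutant-labelled one.

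IDEFIX, an element of ovarian follicle cells and a target of flamenco, was the one family of the 28 that fell in glands. It gave 3.33, 5.21 and 6.15 RPM in mutant-labelled glands, against 203, 74.98 and 194 RPM in control glands, a level 32.1 times as high in control as in mutant-labelled glands and a log2 change of -5.00 ± 0.44 (adjusted p = 5.1e-25). Control replicate 2 had less than the other controls, and still far more than any mutant-labelled library. In both disc groups IDEFIX lay between these levels. The 9 gland families that did not pass include GYPSY1_DM, at 3.59, 4.33 and 4.53 RPM in mutant-labelled glands and 4.40, 9.24 and 4.83 RPM in control glands (log2 change -0.56 ± 0.37, adjusted p = 0.17). TIRANT stood at 3.63, 5.24 and 4.49 RPM in mutant-labelled glands and 7.89, 4.13 and 8.98 RPM in control glands (log2 change -0.66 ± 0.37, adjusted p = 0.097). TABOR stood at 5.19, 3.68 and 3.53 RPM in mutant-labelled glands and 8.39, 7.96 and 4.60 RPM in control glands (log2 change -0.75 ± 0.37, adjusted p = 0.06). Relative to all element reads these last 3 were lower in mutant-labelled glands, by log2 changes of -1.39 for GYPSY1_DM, -1.46 for TIRANT and -1.53 for TABOR. DM176 stood at 4.57, 4.55 and 5.03 RPM in mutant-labelled glands and 4.15, 4.99 and 3.87 RPM in control glands, and GYPSY4 at 8.86, 12.6 and 11.1 RPM in mutant-labelled glands and 4.45, 6.14 and 9.86 RPM in control glands. Neither passed (adjusted p = 0.77 for DM176 and 0.098 for GYPSY4). Relative to all element reads DM176 passed as lower (log2 change -0.68, adjusted p = 0.044). Leaving out 1 library brought GYPSY4 past the threshold (without control replicate 3, adjusted p = 0.016). Likewise TIRANT passed (without control replicate 2, adjusted p = 0.032) and TABOR (without control replicate 3, adjusted p = 0.016, or mutant-labelled replicate 1, adjusted p = 0.028). With all 12 libraries fitted together, all 3 passed: GYPSY4 as higher (adjusted p = 0.032), TIRANT as lower (adjusted p = 0.03) and TABOR likewise (adjusted p = 0.019). The 4 others (GYPSY3, GYPSY5, GYPSY11 and GYPSY12A) had means under 1 RPM in both gland groups, as had GYPSY9, which was not tested. Among them, GYPSY5 passed as higher without control replicate 3 (log2 change 1.68, adjusted p = 0.035).

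Whether a family's change differed between the tissues was tested as the change in discs minus the change in glands, an interaction term estimated from the 12 libraries together. The difference was above 0 in 18 of the 28 families and below 0 in 2, against 54.6% above 0 (65 of 119) and 10.9% below 0 (13 of 119) of all families tested. The median difference was 1.59 over the 28 and 1.12 over all families. The largest was that of GYPSY1_DM, at a log2 difference of 6.47 ± 0.41 (adjusted p = 4.5e-11) between a steep rise in discs and a change that did not pass the test in glands. GYPSY12 followed with 5.07 ± 0.48 (adjusted p = 1.9e-08), IDEFIX with 4.79 ± 0.47 (adjusted p = 3.1e-08), GYPSY6A with 3.91 ± 0.49 (adjusted p = 7.6e-07), GYPSY6 with 3.78 ± 0.45 (adjusted p = 3.7e-07) and GYPSY with 3.37 ± 0.46 (adjusted p = 1.7e-06). In IDEFIX the difference came from the fall in glands, and in the others from the larger rise in discs. Each of these 6 differences kept its direction and its call relative to all element reads.

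Of the 17 families that rose in both tissues, 11 rose by more in discs, 2 rose by more in glands and in 4 the difference did not pass the test. GYPSY7 and DM297 are those with the larger rise in glands, with log2 differences of -2.23 ± 0.61 (adjusted p = 0.0032) for GYPSY7 and -0.93 ± 0.35 (adjusted p = 0.021) for DM297. The call of DM297 was lost without control disc replicate 1 (adjusted p = 0.073), without control disc replicate 2 (adjusted p = 0.053) or without mutant-labelled disc replicate 2 (adjusted p = 0.058). With its entries tested apart, the difference of DM297 passed for the LTR (-2.76) and not for the internal part (-0.40). For GTWIN, which rose steeply in both tissues, the difference was 0.02 ± 0.56 (adjusted p = 0.99), and for ZAM, QUASIMODO and GYPSY10 the adjusted p were 0.14, 0.55 and 0.17. Relative to all element reads, the differences of ZAM (-2.30, adjusted p = 2.8e-04) and QUASIMODO (-1.77, adjusted p = 2.3e-04) did pass, as below 0. That of ZAM also passed without mutant-labelled gland replicate 1 (-1.13, adjusted p = 0.022). The joined sum of GTWIN hides a split between its entries. Tested apart, its internal part rose by more in glands (log2 difference -3.09, past the threshold), and its LTR did not pass (1.08). In GYPSY10 the internal part passed (1.36) and the LTR did not (-1.10). The other families with a larger rise in discs were QUASIMODO2_DM at 2.59, GYPSY8 at 2.30, ACCORD2 at 1.78, GYPSY2_DM at 1.41, ACCORD at 1.21, ROVER_DM at 1.12 and GYPSY2 at 1.08 on the log2 scale. Of the entries of GYPSY2_DM, the LTR passed (3.43) and the internal part did not (0.32). The call of ACCORD was lost without control gland replicate 2 (adjusted p = 0.086), mutant-labelled gland replicate 1 (adjusted p = 0.052) or mutant-labelled disc replicate 3 (adjusted p = 0.075). That of ROVER_DM was lost without control gland replicate 3 (adjusted p = 0.10), mutant-labelled gland replicate 1 (adjusted p = 0.053) or mutant-labelled disc replicate 3 (adjusted p = 0.081), and that of GYPSY2 without control gland replicate 3 (adjusted p = 0.26). With TMM factors of the genes the calls of ROVER_DM (adjusted p = 0.063) and GYPSY2 (adjusted p = 0.053) were lost, and with RLE factors that of ROVER_DM (adjusted p = 0.051). Relative to all element reads these differences turned for ACCORD (-0.23), GYPSY2 (-0.43), GYPSY2_DM (-0.07) and ROVER_DM (-0.34), and that of ACCORD2 was no longer past the threshold (adjusted p = 0.39).

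Another 7 families rose in discs without passing the test in glands when each tissue was fitted on its own, and in 6 of them the difference between the tissues passed. Besides GYPSY1_DM these were TIRANT, at a log2 difference of 2.84 ± 0.39 (adjusted p = 2.2e-06), GYPSY3 at 2.74 ± 0.54 (adjusted p = 1.4e-04), GYPSY4 at 2.01 ± 0.38 (adjusted p = 9.5e-05), GYPSY12A at 2.01 ± 0.51 (adjusted p = 0.0019) and DM176 at 1.02 ± 0.33 (adjusted p = 0.01). The difference of DM176 turned to -0.46 relative to all element reads, and the calls of GYPSY4 (adjusted p = 0.15) and GYPSY12A (adjusted p = 0.27) were lost. The seventh family, GYPSY9, was not tested within glands, and its difference did not pass (adjusted p = 0.15). The fit shares 1 estimate of spread between the tissues.

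**Figure D3:**
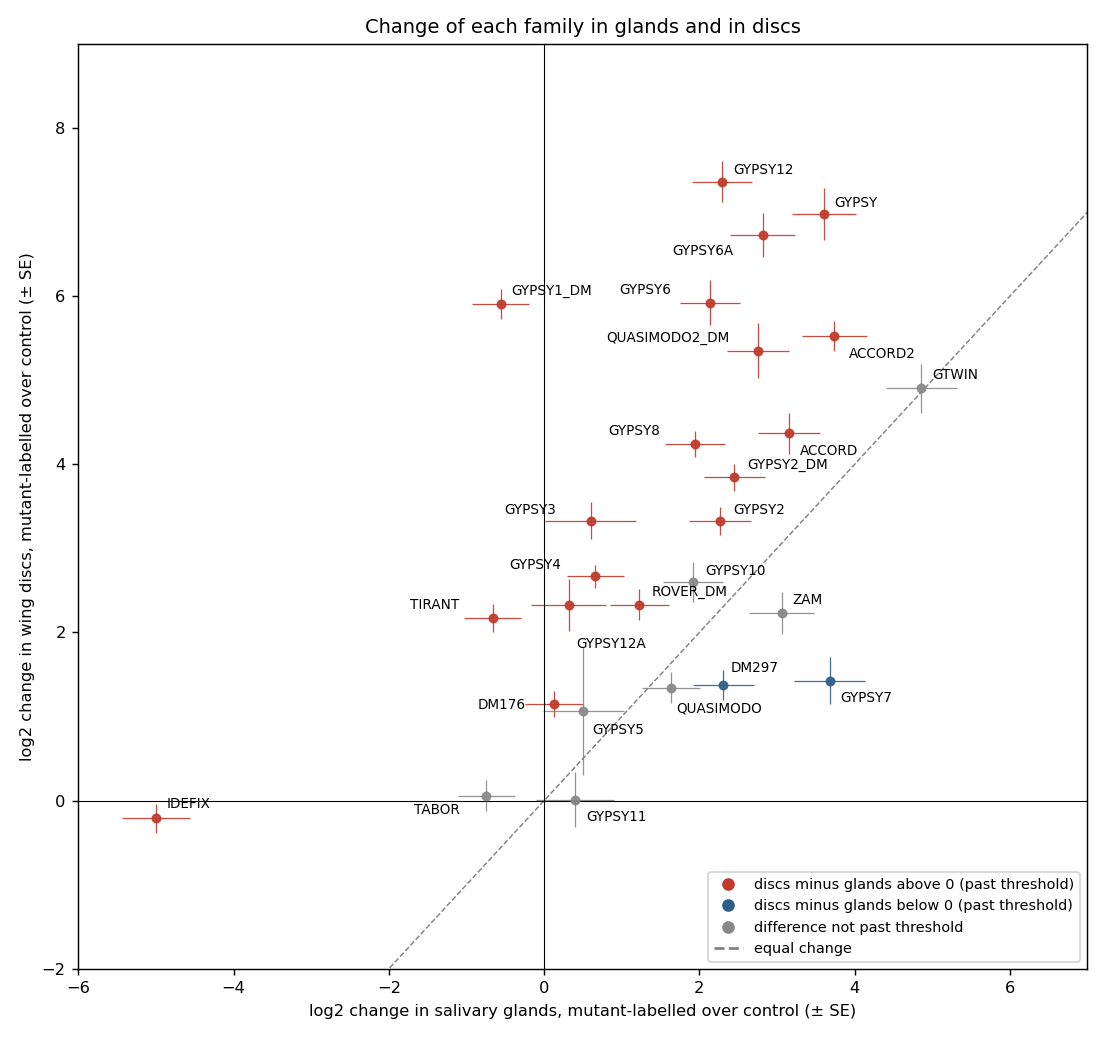
Each point is 1 of the 27 families tested in both tissues, with its log2 change (mutant-labelled over control, per gene count) in glands on the horizontal axis and in discs on the vertical axis; bars are 1 SE and the broken line marks equal changes. Most families lie above that line, GTWIN lies on it and IDEFIX stands alone on the left. GYPSY7, DM297, ZAM and QUASIMODO are among those under it, and of these only GYPSY7 and DM297 passed the test of the difference. Scaled to all element reads, the disc changes of DM176, DM297, GYPSY5, GYPSY7, GYPSY11, QUASIMODO, TABOR, TIRANT and ZAM turn negative.

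The internal and LTR entries of a family were mostly called in the same direction, though often with changes of unlike size. In discs, for example, the log2 changes of the internal part and the LTR were 2.05 and 5.65 for GTWIN. Most entries rose in discs in any case, 20 of 24 internal and 20 of 22 LTR entries tested. The pairs of entries were not counted over all families. Of the families with both entries tested in discs (20 of 24), 16 had both higher in mutant-labelled discs, and of the 16 tested so in glands, 11 had both higher and 1, IDEFIX, had both lower. In 1 family in each tissue the entries were called in opposite directions: IDEFIX in discs and TABOR in glands. The joined sums of these families hide this.

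In discs the internal part of IDEFIX gave 14.998, 10.52 and 14.1 RPM in mutant-labelled libraries, against 55.9, 48.8 and 41.1 RPM in control libraries, a log2 change of -1.88 ± 0.19 (adjusted p = 1.6e-06). The LTR of IDEFIX gave 47.8, 32.9 and 38.9 RPM in mutant-labelled discs, against 14.9, 12.2 and 11.4 RPM in control discs, a log2 change of 1.64 ± 0.18 (adjusted p = 4.8e-06). The LTR therefore took 73.5% to 76.1% of the family's reads in mutant-labelled discs and 19.98% to 21.7% in control discs, with no overlap. In glands both entries fell, with log2 changes of -5.24 ± 0.43 (adjusted p = 1.1e-28) for the internal part and -4.40 ± 0.42 (adjusted p = 2.6e-22) for the LTR. TABOR showed a like split, though its LTR had very few control reads. In control gland replicates 1 and 2 that LTR lay under the level of 3 reads (0.152 and 0.172 RPM). The internal part of TABOR gave 4.63, 3.30 and 3.19 RPM in mutant-labelled glands, against 8.34, 7.91 and 4.46 RPM in control glands, a log2 change of -0.89 ± 0.37 (adjusted p = 0.025), and its LTR gave 0.556, 0.384 and 0.342 RPM in mutant-labelled glands, against 0.0506, 0.0574 and 0.134 RPM in control glands, a log2 change of 2.13 ± 0.66 (adjusted p = 0.0021). In discs the internal part of TABOR did not pass (adjusted p = 0.66), while the LTR, at 2.96, 3.23 and 3.74 RPM in mutant-labelled discs and 0.0904, 0.506 and 0.147 RPM in control discs, rose by a log2 change of 3.80 ± 0.43 (adjusted p = 4.7e-06).

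The LTR share moved in other families as well, upward in some and downward in others, and it is given as a description without a test. In GTWIN the LTR held 88.9% to 95.8% of the reads in mutant-labelled discs against 38.9% to 69.2% in control discs, and 28.8% to 51.3% in mutant-labelled glands against 33.3% to 50.00% in control glands. In GYPSY2_DM it held 49.5% to 61.7% in mutant-labelled discs against 18.8% to 29.7% in control discs. DM297 went the other way, with 11.5% to 14.3% in mutant-labelled discs against 27.3% to 35.7% in control discs, where the internal part rose (log2 change 1.72 ± 0.20, adjusted p = 5.3e-06) and the LTR did not pass (adjusted p = 0.63). In DM297 of glands the LTR took 28.3% to 30.9% in mutant-labelled libraries against 17.9% to 22.3% in control libraries, the reverse of discs. Nearly all GYPSY12 reads fell on the LTR: 98.6% to 98.8% in mutant-labelled discs against 82.0% to 84.0% in control discs, and 98.96% to 99.4% in mutant-labelled glands against 95.2% to 97.4% in control glands. The internal part of GYPSY12 rose in discs too, to 53.6, 58.7 and 58.7 RPM in mutant-labelled discs against 5.61, 3.24 and 4.91 RPM in control discs (log2 change 3.63 ± 0.21, adjusted p = 1.1e-08), and did not pass in glands (adjusted p = 0.43). GYPSY and GYPSY1_DM, in contrast, were read almost wholly on their internal parts, with 4.07% to 5.82% of GYPSY reads and 0.631% to 0.963% of GYPSY1_DM reads on the LTR in mutant-labelled discs, against 0% to 5.65% and 0.538% to 1.81% in control discs. An LTR can stand alone in the genome after recombination between the ends of a full copy, so reads on an LTR entry need not come from full elements; the source of these reads was not tested. In 9 of the 52 entries some values were fractions of a read, among them GYPSY12_LTR and GTWIN_I. How reads that match several entries were counted is not known here.

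Levels in control tissues set the starting point of these changes. Per gene count, 3 of the 26 families tested were higher in control glands than in control discs (ACCORD, IDEFIX and TIRANT) and 8 were lower, beside 6.25% higher (7 of 112) and 58.9% lower (66 of 112) of all families. The split depends on the scaling. TMM factors of the genes were 0.626 to 0.686 in control glands and 1.64 to 1.67 in control discs, and with them 13 were higher and 1 was lower, and the median of all families was -1.03 by summed gene counts and 0.35 with TMM factors on the log2 scale. ACCORD stood at 10.97, 27.0 and 14.0 RPM in control glands, against 2.71, 1.97 and 2.42 RPM in control discs, a log2 difference of 2.86 ± 0.37 (adjusted p = 1.4e-04). IDEFIX differed by 1.36 ± 0.35 (adjusted p = 0.0067) and TIRANT by 1.44 ± 0.32 (adjusted p = 0.0032), and these 3 kept direction and call under each scaling tried. DM176 was the lowest in glands relative to discs, at 4.15, 4.99 and 3.87 RPM in control glands against 79.4, 67.1 and 61.9 RPM in control discs, a log2 difference of -4.00 ± 0.23 (adjusted p = 1.3e-06) that also held under each scaling.

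The genes known to silence such elements were set beside the families. Of 53 genes of H3K9 methylation and heterochromatin, the piRNA and siRNA pathways and insulators, 48 could be tested in discs, and 12 were higher and 6 lower in mutant-labelled discs, against 16.0% higher and 15.2% lower of all 9379 genes tested. The median log2 change of the list was -0.02, beside 0.00 over all genes. Genes of the germline piRNA pathway gave the steepest rises: moon, which drives transcription of piRNA clusters in the ovary, reached 55.7, 48.4 and 44.6 CPM in mutant-labelled discs against 0.268, 0.150 and 0.146 in control discs, a log2 change of 8.02 ± 0.20 (adjusted p = 1.1e-09). The genes krimp and qin, whose Tudor proteins act in germline piRNA granules, rose by 3.68 ± 0.17 (adjusted p = 1.2e-07) for krimp and 3.99 ± 0.11 (adjusted p = 2.3e-09) for qin. In the pathway that also works in ovarian soma, SoYb rose by 1.33 ± 0.10 (adjusted p = 6.6e-06), mael by 1.76 ± 0.17 (adjusted p = 2.8e-05) and piwi by 0.79 ± 0.21 (adjusted p = 0.017), piwi being at 3.58, 4.91 and 4.52 CPM in mutant-labelled discs and 2.50, 2.65 and 2.37 in control discs. Lower genes, besides Su(var)3-9, were the SUMO ligase gene Su(var)2-10, the HP1 family gene HP1b, the histone H4 methyltransferase gene Hmt4-20, the germline PIWI gene aub and AGO2, the last a slicer of the siRNA pathway that is known to restrain elements in somatic cells, with a log2 change of -0.25 ± 0.07 (adjusted p = 0.018). Leaving out 1 disc library ended the calls of piwi (control replicate 3 or mutant-labelled replicate 2), aub (control replicates 2 or 3, mutant-labelled replicates 2 or 3), AGO2 (each control replicate, or mutant-labelled replicate 2), HP1b (each control replicate, or mutant-labelled replicates 1 or 2), loqs (control replicate 3) and Su(var)2-10 (control replicate 2), with adjusted p of 0.05 to 0.15. The summed germline markers given above rose too, but that list shares the genes vas and aub with the germline piRNA genes, so the lists are not independent. The cells behind these rises were not tested. The 5 markers of gonadal soma summed to 619 to 896 CPM in mutant-labelled discs and 839 to 928 in control discs, with 1 of the 4 tested lower. Of these, tj was at 0 in both groups. With all 12 libraries fitted together, the calls of piwi, aub, AGO2, HP1b, Hmt4-20, Su(var)2-10 and loqs were lost, and that of HP1b was also lost with no low-count filter. The joint fit also ended the calls of the piRNA pathway genes nxf2 (adjusted p = 0.30) and vas (adjusted p = 0.052), both higher in the main test.

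In glands, 47 of the 53 genes could be tested, and 5 were higher and 1 lower in mutant-labelled glands, against 7.26% higher and 5.91% lower of all 9441 genes tested. The higher ones were Su(var)3-9, wde, AGO3, mael and the long RNA of the flamenco locus. wde, the partner protein of SetDB1, stood at 32.5, 44.0 and 34.6 CPM in mutant-labelled glands and 10.4, 10.7 and 11.5 in control glands, a log2 change of 1.76 ± 0.18 (adjusted p = 8.6e-04), and it rose in discs as well (log2 change 0.82 ± 0.06, adjusted p = 5.4e-06). mael, a piRNA pathway protein, stood at 7.98, 9.50 and 7.503 CPM in mutant-labelled glands and 0.713, 1.08 and 0.491 in control glands, a log2 change of 3.51 ± 0.32 (adjusted p = 5.3e-04). The flamenco locus (X:21631891-21790731, plus strand, BDGP6) was counted 12, 12 and 12 times in mutant-labelled glands and 0 times in each control gland library (adjusted p = 0.023), and 9, 9 and 11 times in mutant-labelled discs against 10, 6 and 2 times in control discs, too few to test. The call was lost without mutant-labelled gland replicate 3 (adjusted p = 0.057). Its reads cannot be told apart from those of the element copies it holds. The one lower gene was armi, a helicase of piRNA processing, with a log2 change of -0.997 ± 0.27 (adjusted p = 0.045). Its call was lost with limma-voom and with no low-count filter. It was also lost without control gland replicates 1 or 2 or any mutant-labelled gland replicate (adjusted p of 0.081 to 0.15). Of the insulator and env-derived genes, 5 were tested in discs and 6 in glands, and the count past the threshold was 0 in both tissues with edgeR, DESeq2 and limma-voom; at an unadjusted p under 0.05 it was 0 in discs with each tool, and in glands 1 with edgeR, 2 with DESeq2 and 1 with limma-voom.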

How the data were processed

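The authors deposited, for each of 12 libraries (3 in each of 4 groups), a table of whole-number read counts per gene, for which the submitters' processing notes name BDGP6 and dm6 as builds and featureCounts, HISAT2 and cutadapt as tools, and a table of estimated counts (expected counts) per transposable element entry, not scaled to depth. The second tool (SalmonTE) is known from the name of the deposited tables alone; its version, element library and options are not given in the sources used here. Of these tables, 4 cells in 3 control libraries hold month names, 0 of them in the 28 families. The cells were left out of the summed element reads of control gland replicates 1 and 2 and control disc replicate 1. Those sums are too low by an amount not recovered here, and values relative to all element reads rest on them.

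Estimated counts of an internal and an LTR entry were summed per family, rounded to whole numbers and tested over all families with edgeR 4.0.16 (R 4.3.3; quasi-likelihood F test, filterByExpr defaults with a count minimum of 10, Benjamini-Hochberg adjustment, threshold 0.05). The library size was the summed gene count, so a change is relative to gene reads; 3 reads came to 0.0521 to 0.172 RPM, which covers counting error only. Each SE was worked back from the F of the test and the unshrunk change, and can be too small where a group has few reads. Gene counts were tested in the same way with TMM factors over all genes; names came from the annotation of release 115 for 17710 of 17807 gene IDs. No pair of libraries of a group agreed within sampling noise (chi-square per gene of 4.40 or more), so none was merged as a repeated deposit; this does not show that they are more than technical replicates.

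Named with values are families past the threshold in glands, in discs or in the difference between them, or averaging at least 10 RPM in a group, and per tissue and list up to 6 genes past the threshold with the lowest p. GYPSY5 and GYPSY11 fall outside that rule and were named after their values were seen. The members and lists were chosen with earlier results of these data known. The tests were checked on simulated data. Alternatives were scaling by all element reads or by TMM or RLE factors, no low-count filter, DESeq2 1.42.0, limma-voom (limma 3.58.1), entries tested apart, all libraries fitted together, a block of replicate numbers and each library left out. Consensus sequences of the elements were not analysed here.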

Additional observations from a re-analysis of the deposited data

Results flagged for a closer look

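The change of 20 families differed between the tissues by the test of the difference itself (interaction term, log2 change in discs minus that in glands, edgeR adjusted p under 0.05). The difference was 6.47 for GYPSY1_DM, 5.07 for GYPSY12, 4.79 for IDEFIX, 3.91 for GYPSY6A, 3.78 for GYPSY6 and 3.37 for GYPSY. It was 2.84 for TIRANT, 2.74 for GYPSY3, 2.59 for QUASIMODO2_DM, 2.30 for GYPSY8, 2.01 for GYPSY4 and 2.01 for GYPSY12A. Smaller differences above 0 were 1.78 for ACCORD2, 1.41 for GYPSY2_DM, 1.21 for ACCORD, 1.12 for ROVER_DM, 1.08 for GYPSY2 and 1.02 for DM176. Differences below 0 were -2.23 for GYPSY7 and -0.93 for DM297. Over all families tested, 54.6% had a called difference above 0 and 10.9% one below 0.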

How the results depend on the processing

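With the 52 entries tested apart, 33 were past the threshold in glands, 43 in discs and 31 in the difference between tissues; those numbers are higher because a family counts once for each entry. On the percent of all element reads, the ratio of summed reads was 1.35 in glands and 4.93 in discs. With all element reads as library size, the median change of all families was 0.25 in glands and -0.12 in discs; 16 families were then higher and 5 lower in glands, 14 higher and 7 lower in discs, and in the difference 10 above 0 and 5 below. Directions that turned under that scaling were DM176 (-0.68), GYPSY3 (-0.19), GYPSY4 (-0.14), GYPSY5 (-0.34), GYPSY11 (-0.41) and GYPSY12A (-0.48) in glands; DM176 (-1.14), DM297 (-0.91), GYPSY5 (-1.26), GYPSY7 (-0.85), GYPSY11 (-2.26), QUASIMODO (-0.94), TABOR (-2.25), TIRANT (-0.12) and ZAM (-0.0526) in discs; and, in the difference, ACCORD (-0.23), DM176 (-0.46), GTWIN (-1.52), GYPSY10 (-0.78), GYPSY2 (-0.43), GYPSY2_DM (-0.0689) and ROVER_DM (-0.34). The disc change of TABOR, not past the threshold, turned without control replicate 1 (-0.0967) or mutant-labelled replicate 3 (-0.0724). The difference of GTWIN, near 0, also turned with TMM (-0.16) and RLE factors (-0.14) and with limma-voom (-0.12). Between control tissues, GYPSY1_DM turned to 0.10 with TMM and 0.16 with RLE factors, which gave 13 higher and 1 lower (TMM) or 15 higher and 1 lower (RLE) in place of 3 and 8. With all 12 libraries fitted together, 9 silencing genes passed in discs in place of 18. The cause of these shifts was not tested.

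Of values that did not pass in the main test and changed sign when 1 library was left out, the gland change of GYPSY5 lay at -0.22 to 1.68, the disc change of GYPSY11 at -0.26 to 0.40, and the differences of GTWIN at -0.53 to 0.35 and of GYPSY9 at -1.46 to 3.05. At 1.68, without control gland replicate 3, the gland change of GYPSY5 did pass (adjusted p = 0.035). Without any 1 library, called families numbered 17 to 21 in glands, 24 to 25 in discs, 18 to 21 in the difference and 11 to 15 between control tissues; the ratio of summed reads lay at 2.19 to 2.47 for glands and 23.2 to 25.4 for discs; and silencing genes past the threshold numbered 4 to 7 in glands and 13 to 18 in discs. A block of the replicate numbers gave 18 called families in glands, 25 in discs, 20 in the difference and 11 between control tissues, and 7 silencing genes in glands and 18 in discs. The numbers were not taken to pair the samples. Deviations from the group means correlated at 0.009, 0.30 and 0.31 for equal numbers in glands and 0.093, -0.075 and 0.12 in discs. Gland replicates 2 and 3 correlated best with their own number, and not every library did so. With 3 libraries per group these values cannot decide whether the numbers pair the samples. None of the calls named was lost under the block.

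The tables hold no lengths of the elements and no positions of their copies, so neither levels between families nor single copies can be compared. In glands, GYPSY3, GYPSY5, GYPSY9, GYPSY11 and GYPSY12A averaged under 1 RPM in both groups. Depth limits detection there. DESeq2 and limma-voom, tried for all comparisons of families, gave counts within 1 of those of edgeR.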
